A study of Arabidopsis thaliana with 12 samples.

Results

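The cytosolic ribosomal protein genes described here encode proteins of the small (40S) and large (60S) subunits of the ribosome that translates nuclear messages in the cytosol. A list of 60 loci, 30 for each subunit, was matched by locus to probe sets that the platform annotation pairs with 1 gene. Of these, 39 were measured, 20 of the 40S and 19 of the 60S subunit, among the 13356 genes tested. Of the other 21 loci, 3 lay on probe sets that name several genes and 18 had no named probe set here, so they were not analysed. In each case 1 probe set stood for a gene, and none of the 39 had a name ending in _s_at or _x_at, the marks of a probe set shared by similar transcripts.

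The arrays measured RNA of whole Arabidopsis thaliana seedlings (Col-0) on Affymetrix arrays, which read transcripts through groups of short probes called probe sets. The 4 groups, of 3 biological replicates each, were dark-grown and light-grown wild type and dark-grown and light-grown amiR-SNF4. The latter carries an artificial microRNA, made when estradiol is given, against SNF4, a subunit that activates SnRK1, a kinase of the response to low energy. Seedlings of all 4 groups, wild type included, were kept at 22 °C on medium with 5 µM β-estradiol, the inducer, and 0.5% sucrose, and were harvested at an age of 5 days, 4 h after the start of the light phase of a day with 8 h of light and 16 h of dark, as the shared protocol gives it. For light-grown seedlings a sowing time of 7 days earlier was also given, and light intensity was 120 in the sample labels but 400 in the series text. No uninduced amiR-SNF4 seedlings were among the samples, and no probe set named SNF4 was analysed here. The labels did not say how many transgenic lines were used, so whether a second silenced line was included is not known. Silencing below means amiR-SNF4 against wild type.

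As background, each ribosome holds a single copy of most of its proteins, and in Arabidopsis nearly every such protein is encoded by several similar genes, called paralogues here. Ribosomal protein messages are abundant in dividing and growing tissue, and the genes are usually regulated together. In plants the growth-promoting kinase TOR favours ribosome production, and SnRK1, active under low energy, acts against TOR. The families were assigned from the standard Arabidopsis nomenclature, since the gene table gave a name beyond the locus for 1 of the 39 members only (PGY1). The 39 measured genes came from 22 protein families, and 12 families had at least 2 measured genes.

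All levels below are log2(intensity + 16) after quantile normalization, which gives every array the same distribution of values. The added 16 sets a floor of 4 on this scale and makes changes of dim genes look smaller. Differences are log2 fold changes from 1 limma fit of all 12 arrays, with standard errors (SE). Calls were made where the p-value, adjusted over all genes tested by the Benjamini-Hochberg method, was under 0.05.

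In dark-grown wild type the median level of the 39 members was 9.89, 10.16 and 9.56 on the 3 arrays. In dark-grown amiR-SNF4 it was 9.30, 9.94 and 9.9985. In light it was 11.08, 11.07 and 10.96 in wild type and 11.07, 11.05 and 11.07 in amiR-SNF4. Every light array thus lay above every dark array, whereas the genotypes overlapped in both conditions. The medians of the 40S genes ran from 9.34 to 10.09 on the dark arrays and from 10.92 to 11.09 on the light arrays, and those of the 60S genes from 9.22 to 10.20 and from 10.99 to 11.11. The dark arrays varied more. The SD of the array medians was 0.299 (n = 3) in dark wild type and 0.389 in dark amiR-SNF4, against 0.0671 and 0.0111 in light. The lowest member medians within each dark group were those of wild type replicate 3 and amiR-SNF4 replicate 1, which were also the dark arrays with the lowest median of deposited intensities (39.4 and 50.0, against 56.5 to 62.5 on the other 4 dark arrays and 61.2 to 99.5 in light). Whether array brightness contributed to the member values was not tested, and the light counts and medians, the silencing count in darkness and the single silencing calls are given with and without them.

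**Figure D1:**
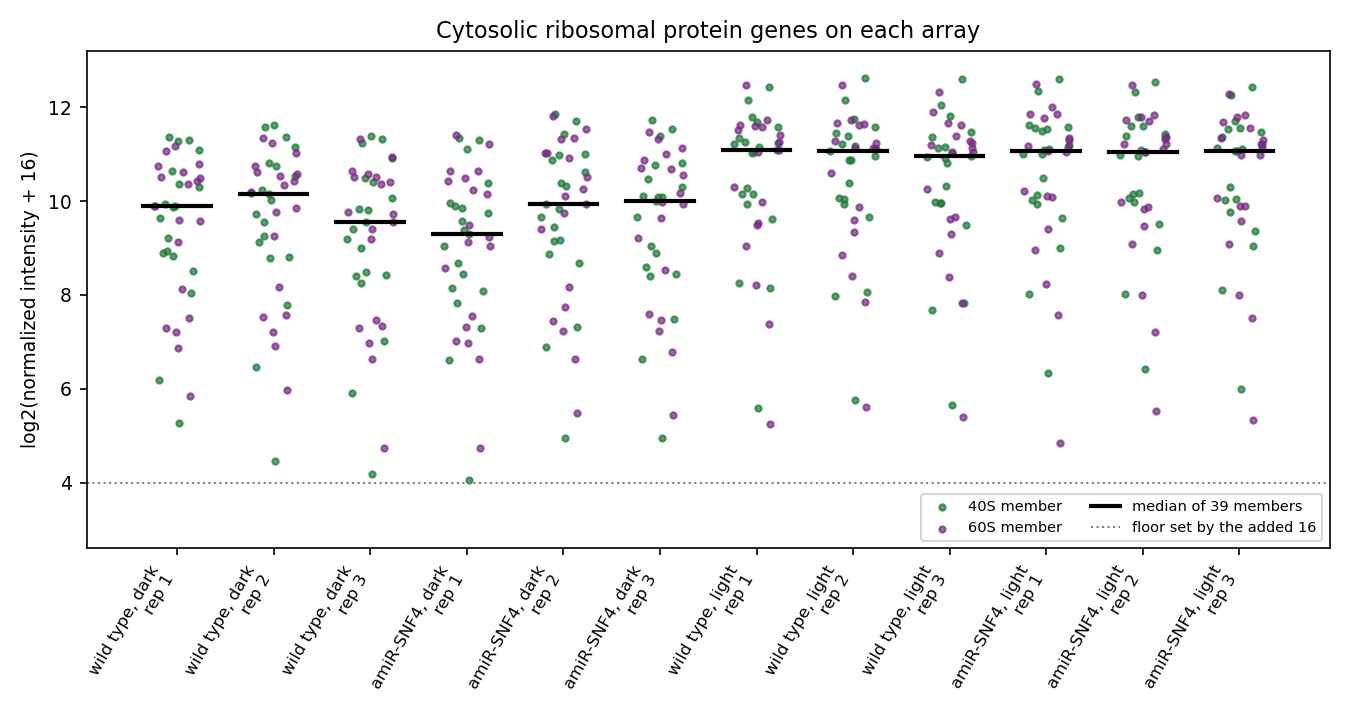
Level of each of the 39 genes on each array, as log2(normalized intensity + 16), with 40S genes in green and 60S genes in purple, the median of the 39 genes as a black line and the floor of 4 dotted. The medians of all 6 light arrays (10.96 to 11.08) lie above those of all 6 dark arrays (9.30 to 10.16).

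Light-grown seedlings had higher levels of ribosomal protein messages than dark-grown seedlings in both genotypes. In wild type 32 of 39 members were higher in light and none was lower (none at an unadjusted p under 0.05 in limma either), where 34.9% of all genes tested were called in either direction and 18.4% were higher. In amiR-SNF4 35 were higher and none lower, also at the unadjusted p, against 33.6% of all genes called and 17.7% higher. The median difference of the members was 1.00 on the log2 scale in wild type (2.00-fold) and 1.13 in amiR-SNF4 (2.18-fold), while the median over all genes was -0.01 in each. The rise reached 2-fold for 19 called members in wild type and 24 in amiR-SNF4, where 7.63% and 7.22% of all genes did so. Dark and light arrays did not overlap for 36 members in wild type and 37 in amiR-SNF4, which held for 46% and 45.6% of all genes. For 32 of 39 members all 6 dark arrays lay below all 6 light arrays, which held for 10.3% of all genes. Without both dimmest dark arrays 33 and 34 members were called, with medians of 0.935 and 0.852. Without wild type dark replicate 3 alone, 25 were called in wild type.

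Genes of both subunits rose. Of 20 genes of the 40S subunit, 18 rose in wild type and 19 in amiR-SNF4, with median differences of 1.01 and 1.16. Of 19 genes of the 60S subunit, 14 and 16 rose, with medians of 0.98 and 0.85. The spread within the 60S subunit was wider, from -0.10 to 2.59 in wild type, than within the 40S subunit, from 0.32 to 1.79.

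The gene with the largest rise was AT2G20450, which encodes L14 of the large subunit. Its levels were 6.88, 6.91 and 6.63 in dark wild type and 9.53, 9.34 and 9.30 in light wild type, a 6.01-fold difference (2.59 ± 0.18, SE, n = 3 arrays per group, adjusted p = 5.93e-07 in limma). In amiR-SNF4 its levels were 6.97, 7.74 and 7.46 in darkness and 9.40, 9.47 and 9.57 in light, a 4.26-fold difference. Dark and light arrays did not overlap in either genotype. AT4G10450, an L9 gene, followed with 8.12, 8.17 and 7.46 in dark wild type against 9.97, 9.86 and 9.65 in light (1.91 ± 0.24, adjusted p = 4.91e-05), and its difference in amiR-SNF4 was 1.86 ± 0.24.

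Among small subunit genes, AT3G04840 (S3a) rose by 1.79 ± 0.13 in wild type and by 1.46 ± 0.13 in amiR-SNF4, and AT4G30800 (S11, an early binder of ribosomal RNA) by 1.78 ± 0.17 and 1.34 ± 0.17. AT5G07090, an S4 gene, rose by 1.59 ± 0.19 and 1.40 ± 0.19. The remaining wild-type rises among the 8 largest were those of the large subunit genes AT1G80750 (L7, 1.55), AT2G44120 (L7, 1.51) and AT1G18540 (L6, 1.49). In amiR-SNF4 the 8 largest held AT2G20450, AT4G10450, AT4G25740 (S10, 1.73), AT1G80750 (1.69), AT5G39850 (S9, 1.64), AT5G59240 (S8, 1.60), AT5G16130 (S7, a protein needed to assemble the small subunit, 1.59) and AT2G44120 (1.52). AT5G59240 lay near the floor in darkness, at levels from 4.07 to 5.27, so its rise is understated.

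Across the 39 genes, light effects in the 2 genotypes, which share no array, had a Pearson r of 0.756 and a Spearman rho of 0.692. This correlation is over genes of the same arrays, which are not independent replicates, and it includes differences between probe sets in response and brightness. The plot of light effects shows the genes in order of the wild-type difference.

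**Figure D2:**
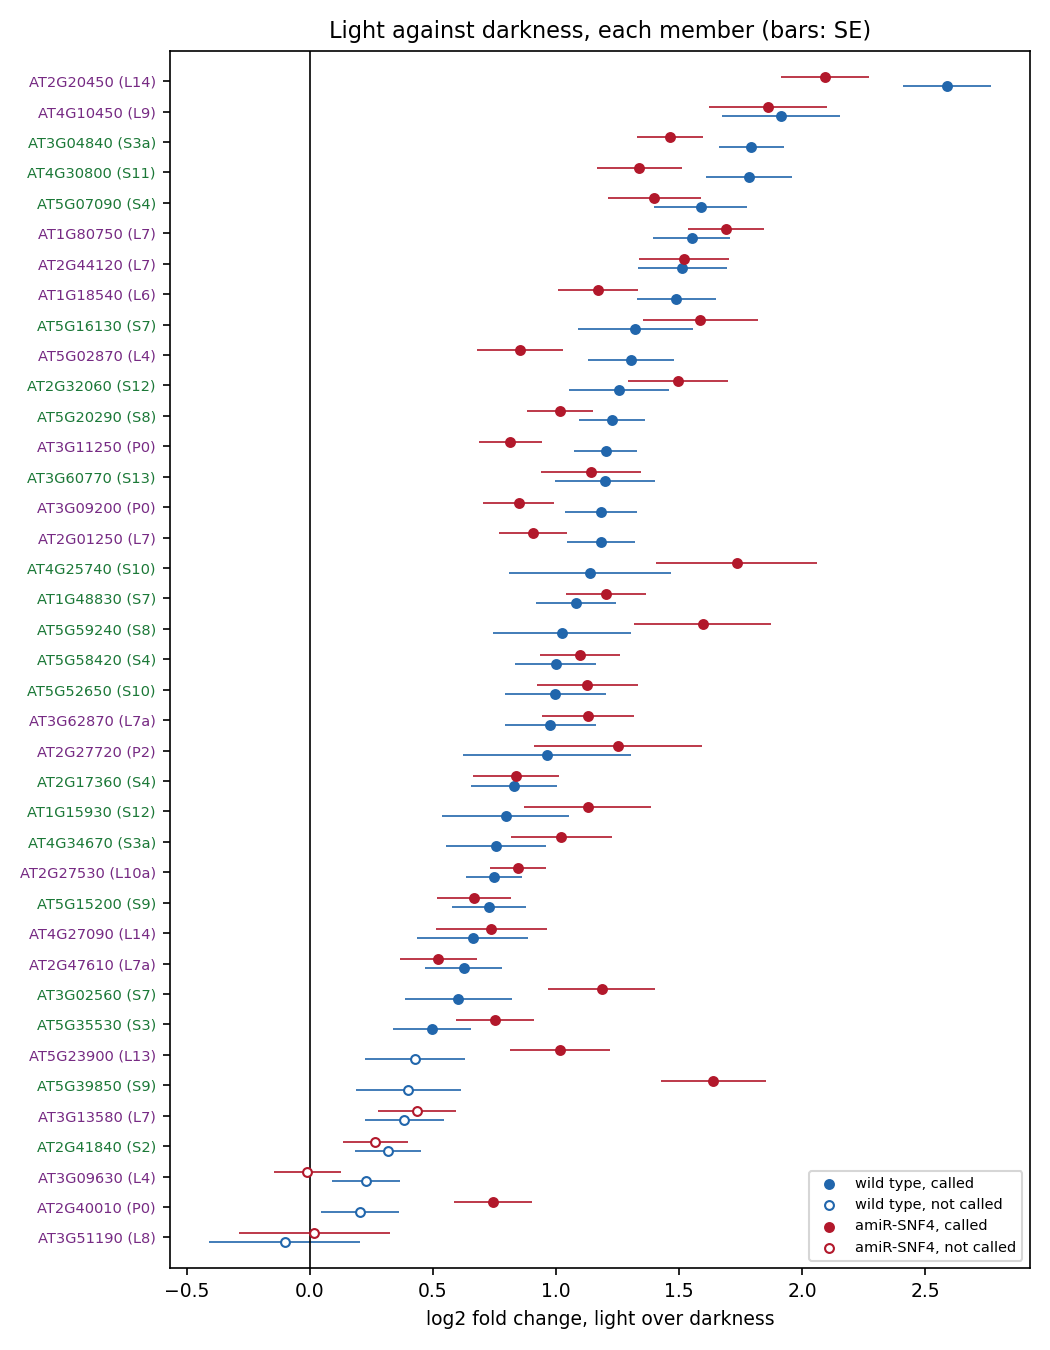
Log2 fold change of light over darkness for each of the 39 genes in wild type (blue) and amiR-SNF4 (red), with SE bars, filled where called, family in parentheses and 40S names in green, 60S names in purple. In wild type 32 genes and in amiR-SNF4 35 genes were called, all higher in light, from AT2G20450 at the top (2.59 and 2.09) to AT3G51190 at the bottom (-0.10 and 0.02).

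There were 4 members called in neither genotype. AT3G09630, an L4 gene whose protein lines the exit tunnel of the ribosome, had levels of 10.78, 11.02 and 10.94 in dark wild type and 11.08, 11.11 and 11.23 in light wild type (0.23 ± 0.14, adjusted p = 0.237). In amiR-SNF4 its levels were 11.21, 11.54 and 11.13 in darkness and 11.33, 11.31 and 11.21 in light (-0.01 ± 0.14, adjusted p = 0.973), with a 95% interval of the difference from -0.31 to 0.29. Dark and light arrays did not overlap in wild type but did in amiR-SNF4. AT2G41840, an S2 gene (a protein of the decoding region), stood at 0.32 ± 0.13 in wild type and 0.27 ± 0.13 in amiR-SNF4. AT3G13580, an L7 gene, stood at 0.38 ± 0.16 (adjusted p = 0.0826) and 0.43 ± 0.16 (adjusted p = 0.0522), with no overlap between dark and light arrays in either genotype. AT3G51190, an L8 gene, was dim on all 12 arrays, at levels from 4.74 to 5.97, so a change of this gene would be hard to see. For all 4 the 95% intervals of both light effects stayed within 2-fold.

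Another 3 members were called higher in light in amiR-SNF4 and not in wild type, namely AT5G39850 (S9), AT2G40010 (P0) and AT5G23900 (L13), which are described with the silencing results. The light effects of the genotypes differed for AT5G39850 (adjusted p = 0.0237), and for the others this difference was not called (adjusted p = 0.186 for AT2G40010 and 0.269 for AT5G23900).

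Genes of the same ribosomal protein often rose by different amounts. In the 12 families with at least 2 measured genes there were 23 pairs, and the light effects of the pair differed for 17 of them (exact two-sided permutation test of arrays between darkness and light within each genotype, 400 arrangements, Benjamini-Hochberg adjusted p under 0.05 over the 23 pairs; the smallest p this test can give is 0.005). The difference was at least 0.5 on the log2 scale, as the mean of both genotypes, in 11 pairs. Its sign was the same in both genotypes in 20. The test was chosen after values were seen, and it used the mean of both genotypes. Pairs within the larger families share genes, so the 23 pairs are not separate results.

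The widest gap was between the L14 genes. AT2G20450 rose by 1.64 more than AT4G27090, whose own rises were 0.66 ± 0.22 in wild type and 0.74 ± 0.22 in amiR-SNF4 (exact permutation adjusted p = 0.0105). In the L7 family AT3G13580 rose less than each of the other 3, by 1.21 against AT1G80750, 1.11 against AT2G44120 and 0.63 against AT2G01250, each with an exact permutation adjusted p of 0.0105. In the L4 family AT5G02870 rose by 1.31 ± 0.17 in wild type and 0.85 ± 0.17 in amiR-SNF4, 0.97 more than AT3G09630 (exact permutation adjusted p = 0.0105).

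Among 40S families, the S3a gene AT3G04840 exceeded AT4G34670 by 0.74 (exact permutation adjusted p = 0.023), the S4 gene AT5G07090 exceeded AT2G17360 by 0.66 and the S7 gene AT5G16130 exceeded AT3G02560 by 0.56 (both 0.0105 by the same exact test). In the P0 family, which forms the base of the stalk that recruits elongation factors, AT3G09200 and AT3G11250 rose by 1.18 and 1.20 in wild type while AT2G40010 stood at 0.20. In amiR-SNF4 the 3 genes stood at 0.85, 0.81 and 0.74. On the mean of both genotypes AT2G40010 differed from each of the others (exact permutation adjusted p = 0.0406), but in amiR-SNF4 by only 0.10 and 0.07. The pairs not called were those of S8, S9 and S10, 1 pair of S7, 1 of L7 and 1 of P0. A pair compares 2 probe sets, whose response can differ, and whether a probe set also reads a close paralogue was not tested because probe sequences were not used here.

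**Figure D3:**
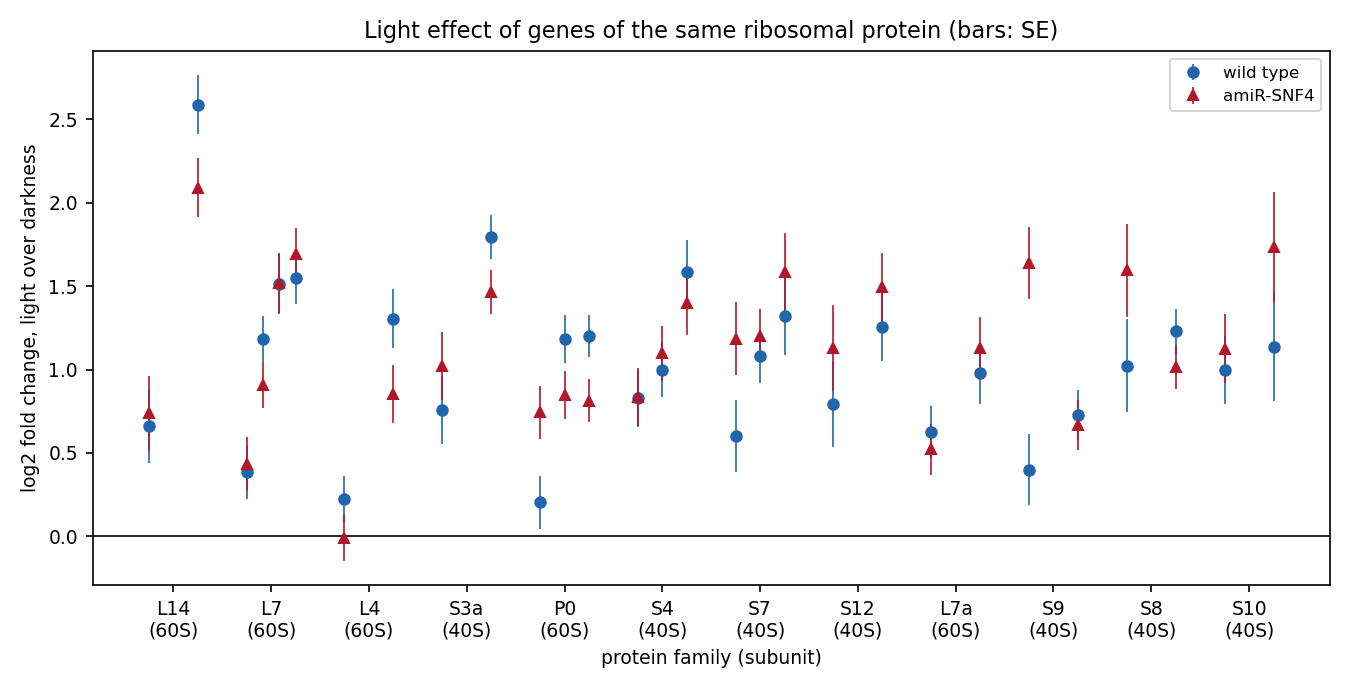
Log2 fold change of light over darkness, with SE bars, for the genes of each of the 12 families with at least 2 measured genes, in wild type (blue circles) and amiR-SNF4 (red triangles), ordered by the range in wild type. The L14 genes lie farthest apart in wild type (0.66 and 2.59) and the S10 genes closest (1.00 and 1.14).

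Few of these genes were called between the genotypes when all 12 arrays were fitted. The median SD of a member was 0.362 in dark amiR-SNF4, against 0.245 over all genes. In dark wild type it was 0.171 against 0.232. The part of this spread in the counts was not tested. In darkness 4 of 39 members were higher and 2 lower in amiR-SNF4, and the other 33 were not called, where 30.8% of all genes tested were called and 14.3% were higher. The median difference of the members was 0.02, against -0.03 over all genes, and it ran from -0.0925 without amiR-SNF4 dark replicate 2 to 0.278 without amiR-SNF4 dark replicate 1. In light 1 member was higher and none lower (none at an unadjusted p under 0.05 in limma either), where 19.1% of all genes were called and 9.14% were higher, and the median was 0.06 against -0.03. The arrays of the genotypes did not overlap for 12 of 39 members in darkness and 10 in light, which held for 37% and 40.4% of all genes. The 95% interval of the difference stayed within 2-fold for 31 of 33 members not called in darkness and 37 of the 38 in light. The widest reached -1.17 in darkness and 1.19 in light. These intervals use 1 spread per gene for all 4 groups. The median SD of a member was lower in light, 0.101 in wild type and 0.0843 in amiR-SNF4. Intervals in darkness may thus be too narrow and those in light too wide. By subunit, 2 genes of the 40S rose in darkness, and 2 of the 60S rose and 2 fell. The median difference in darkness was -0.08 for the 40S and 0.14 for the 60S genes. In light it was 0.07 and 0.05. The dark arrays of the genotypes did not overlap for 15% of the 40S and 47.4% of the 60S genes, against 37% of all genes. The count of calls in darkness depended on single arrays and on scaling. Without amiR-SNF4 dark replicate 1, 9 were higher and 2 lower, so 11 of 39 were called where 29.6% of all genes were. The share of the members was then near that of all genes. Without wild type dark replicate 3 none was higher and 4 were lower (29.2% of all genes called). Without both 4 were higher and 3 lower (29% of all genes called). Without normalization, or with scaling to the hybridization controls, limma called none (2 at an unadjusted p under 0.05 in each). Of all genes 17.1% and 19.1% were called there.

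The P0 gene AT2G40010 was lower in darkness. Its levels were 7.52, 7.58 and 7.33 in wild type and 6.63, 6.63 and 6.79 in amiR-SNF4 (-0.79 ± 0.16, adjusted p = 0.0018). In light they were 7.37, 7.84 and 7.82 in wild type and 7.56, 7.21 and 7.51 in amiR-SNF4 (-0.25 ± 0.16, adjusted p = 0.338). The genotypes were apart in darkness and overlapped in light. The other P0 genes, AT3G09200 and AT3G11250, stood at 0.32 and 0.14 in darkness and were not called.

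The L13 gene AT5G23900 was also lower in darkness, at 9.89, 10.20 and 9.77 in wild type and 8.58, 9.41 and 9.20 in amiR-SNF4 (-0.88 ± 0.20, adjusted p = 0.00451). In light its levels were 10.29, 10.60 and 10.25 in wild type and 10.21, 9.97 and 10.06 in amiR-SNF4 (-0.30 ± 0.20, adjusted p = 0.389). The arrays of the genotypes did not overlap in either condition. Both falls in darkness were called with each of the 12 arrays left out in turn (highest adjusted p 0.00973 and 0.0245 in limma) and were not called without normalization between arrays (0.149 and 0.212) or with scaling to the hybridization controls (0.0571 and 0.164). Without both dimmest dark arrays the falls were -0.85 (0.00762) and -0.75 (0.00965).

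The 4 rises in darkness were those of AT2G20450 (L14), AT5G02870 (L4), AT4G30800 (S11) and AT3G04840 (S3a). AT2G20450 went from 6.88, 6.91 and 6.63 in wild type to 6.97, 7.74 and 7.46 in amiR-SNF4 (0.58 ± 0.18, adjusted p = 0.024). AT5G02870 had 10.35, 10.35 and 10.36 in wild type and 10.64, 11.35 and 10.69 in amiR-SNF4 (0.54 ± 0.17, adjusted p = 0.0326). For both the groups did not overlap, and amiR-SNF4 replicate 2 stood highest. Without that array the differences were 0.41 and 0.31 and were not called. The call of AT2G20450 was also lost without wild type replicate 3 or amiR-SNF4 replicate 3. That of AT5G02870 was also lost without any 1 of the dark wild-type arrays.

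AT4G30800 had 6.19, 6.46 and 5.92 in dark wild type and 6.60, 6.89 and 6.64 in dark amiR-SNF4 (0.52 ± 0.17, adjusted p = 0.0375). AT3G04840 had 9.65, 9.72 and 9.40 against 9.95, 9.93 and 10.11 (0.41 ± 0.13, adjusted p = 0.0328). Neither pair of groups overlapped. In light all 4 genes stood between 0.07 and 0.09 and were not called, but the difference between the silencing effects in light and in darkness was not called for any of the 4 (adjusted p from 0.291 to 0.359). The 4 rises were lost under several settings. Leaving out 1 array ended the call of AT3G04840 for 2 of the 12 arrays, of AT2G20450 for 3, of AT5G02870 for 4 and of AT4G30800 for 8, with adjusted p-values up to 0.136. None of the 4 was called without normalization, with scaling to the hybridization controls or when only the dark arrays were fitted. Without both dimmest dark arrays AT2G20450 (0.71, adjusted p = 0.00503) and AT5G02870 (0.67, 0.0306) were called, and AT3G04840 (0.34, 0.104) and AT4G30800 (0.44, 0.121) were not. All 4 were also higher in light in both genotypes, as were 32 of all 39 members.

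The S9 gene AT5G39850, whose protein lies in the decoding region, was the 1 member called in light. Its levels were 8.14, 8.05 and 7.83 in light wild type and 9.01, 8.96 and 9.05 in light amiR-SNF4, a 2.00-fold difference (1.00 ± 0.21, adjusted p = 0.0049). In darkness they were 8.04, 7.78 and 7.01 in wild type and 7.29, 7.32 and 7.50 in amiR-SNF4 (-0.24 ± 0.21, adjusted p = 0.456). The genotypes were apart in light and overlapped in darkness. The difference between the silencing effects was 1.24 ± 0.30 (adjusted p = 0.0237) and was the 1 call among 39 members, where 7.98% of all genes were called and 4.07% in this direction. The call in light was kept with each array left out in turn (highest adjusted p 0.0255) and lost without normalization (0.151). The call of the difference was lost for 5 of 12 arrays left out, with adjusted p-values from 0.05 to 0.0632, and also without normalization (0.406), with scaling to the hybridization controls (0.158) and with 1 as the added constant (0.0749). Without both dimmest dark arrays the difference was 1.52 (0.00148) and the effect in light 1.01 (0.000255). The other measured S9 gene, AT5G15200, stood at 0.18 ± 0.15 in light and 0.25 ± 0.15 in darkness. When the light arrays were fitted alone, 3 more members were called higher in amiR-SNF4, namely AT5G59240 (S8, 0.58), AT3G60770 (S13, 0.36) and AT3G13580 (L7, 0.37), while the share of all genes called rose to 26.5% in the same fit.

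**Figure D4:**
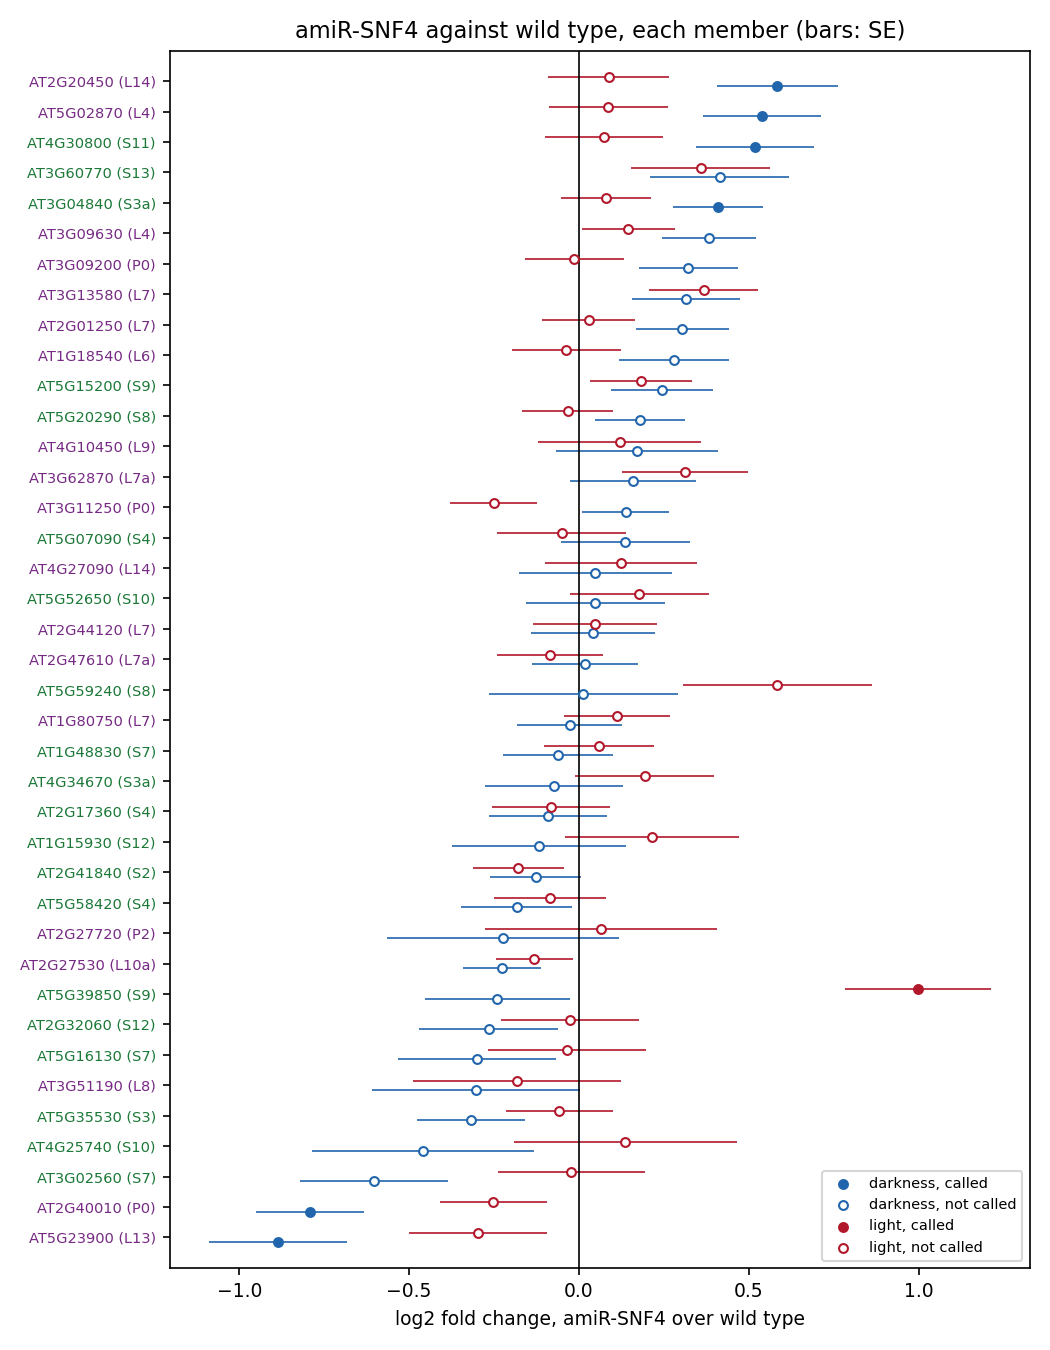
Log2 fold change of amiR-SNF4 over wild type for each of the 39 genes in darkness (blue) and light (red), with SE bars, filled where called, 40S names in green and 60S names in purple. In darkness 4 genes were called higher and 2 lower, between 0.58 (AT2G20450) and -0.88 (AT5G23900), and in light 1 gene was called, AT5G39850 at 1.00.

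**Figure D5:**
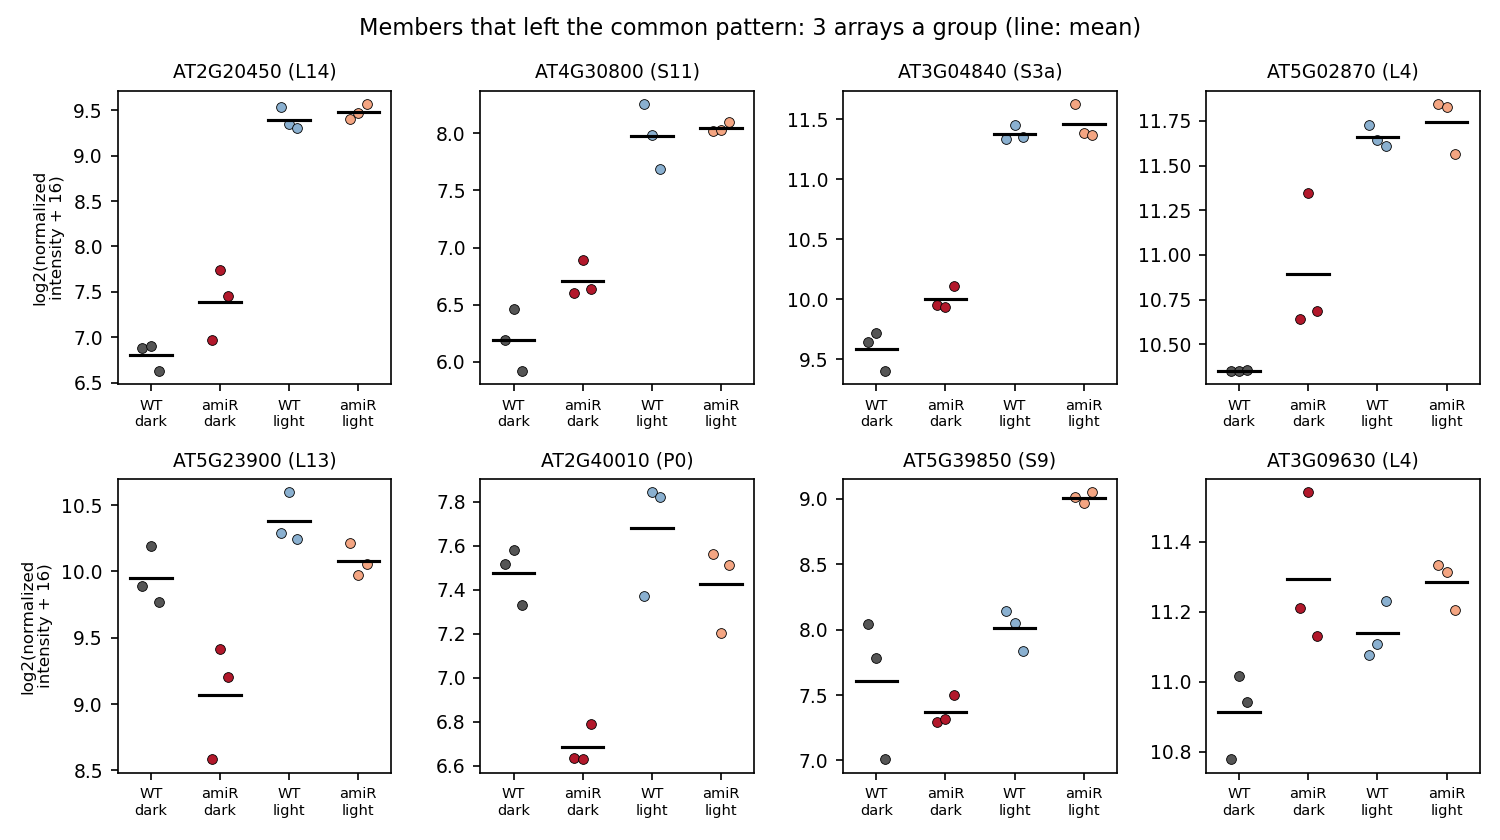
Levels on each array, as log2(normalized intensity + 16), of the 7 genes called in a silencing comparison and of AT3G09630, with the mean of 3 arrays as a line and a separate axis range for each gene. AT2G40010 and AT5G23900 are lowest in dark amiR-SNF4, AT5G39850 is highest in light amiR-SNF4, and AT3G09630 shows no step between darkness and light in amiR-SNF4.

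The SD of the 4 group means was smallest for AT3G51190 (0.146), AT3G09630 (0.178) and AT2G41840 (0.19), against 1.37 for AT2G20450. For AT3G51190 this is no sign of a steady level, since the gene was dim and its SD among the dark wild-type arrays alone was 0.671 (n = 3). AT3G09630 stood 0.38 ± 0.14 higher in dark amiR-SNF4 than in dark wild type, with no overlap of the arrays, and was not called (limma adjusted p = 0.0515).

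Other genes of the translation machinery gave the setting. Of 168 further listed cytosolic ribosomal protein loci 93 were measured. In wild type 73 of them were higher in light and none lower (none at an unadjusted p in limma), with a median of 1.19, and in amiR-SNF4 75 were higher and none lower (2 at an unadjusted p), with a median of 1.12. Of all genes 18.4% and 17.7% were higher. In darkness 1 of the 93 was higher in amiR-SNF4 and 5 were lower, with a median of 0.01, and in light none was called (3 at an unadjusted p). Of all genes 30.8% were called in darkness and 19.1% in light. All 13 measured ribosome assembly factors, of 37 listed, were higher in light in both genotypes, with medians of 1.12 and 1.06, led by AT1G52930 (2.31 ± 0.12 and 2.03 ± 0.12). Against wild type, 4 of the 13 were higher in amiR-SNF4 in darkness and 2 in light, AT3G15460 at 0.84 and 0.58 and AT5G15550 at 0.64 and 0.59. These shares, 30.8% and 15.4%, were near the 30.8% and 19.1% of all genes called in either direction (14.3% and 9.14% higher).

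Of 12 measured translation factors, of 52 listed, 3 rose and 2 fell in light in wild type (median 0.29), and 3 rose and 1 fell in amiR-SNF4 (median 0.01). These shares, 41.7% and 33.3%, were near the 34.9% and 33.6% of all genes called. In darkness 3 were higher in amiR-SNF4 and AT4G27130 was lower (-0.82 ± 0.18). This share, 33.3%, was near the 30.8% of all genes called, of which 14.3% were higher. In light 1 was called (8.33%, against 19.1% of all genes). The helicase gene EIF4A-2 was higher in amiR-SNF4 in darkness (1.00 ± 0.13) and in light (0.87 ± 0.13). Of the TOR pathway list 2 of 9 loci were measured. RAPTOR2, a subunit of the TOR complex, was higher in light by 0.67 ± 0.21 in wild type and by 1.07 ± 0.21 in amiR-SNF4, from dark levels near the floor (4.14 to 4.78), and RAPTOR1 was not called in any comparison.

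RNA came from whole seedlings, so more cells of a type and more message per cell cannot be told apart. Of 14 listed markers of dividing cells 3 were measured (AUR1, AUR2 and AT4G14330). Their summed normalized intensity was 134 to 188 in dark wild type, 53.1 to 114 in dark amiR-SNF4, 269 to 332 in light wild type and 147 to 208 in light amiR-SNF4. Of 6 root hair markers 3 were measured (EXPA18, EXPA7 and AT4G26010), with sums of 157 to 173, 41.5 to 49.7, 343 to 556 and 95.3 to 118 in the same order. Of 8 leaf mesophyll markers 2 were measured (LHCB4.2 and PSAN), with sums of 4060 to 5327, 939 to 1863, 4188 to 5073 and 2677 to 2991. These 2 genes moved in opposite directions with light, LHCB4.2 by -2.06 in wild type and -0.93 in amiR-SNF4 and PSAN by 1.57 and 2.10, so their sum does not show the light effect of either. No marker was at 0, but several lay near the floor of 4 on the log2 scale in dark amiR-SNF4. There the 3 root hair markers had levels from 4.35 to 5.33, and AUR2 and AT4G14330 from 4.31 to 5.37. The added constant makes changes of such dim genes look smaller. Sums of the dividing cell and root hair markers were higher in light, and those of all 3 lists were lower on every amiR-SNF4 array than on any wild-type array of the same condition. Each single marker stood lower in amiR-SNF4. In darkness 2 of 3 dividing cell and 2 of 3 root hair markers were called, where 30.8% of all genes were. In light 1 of 3 of each was called, AUR2 (-0.75) and AT4G26010 (-2.78), where 19.1% of all genes were. Both mesophyll markers were called in both conditions. Their part in the ribosomal protein values was not tested.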

How the data were processed

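The authors deposited 1 intensity per probe set and array on a linear scale. The submitters' processing notes name GCOS, with no version, and scaling is not given in the sources used here. Of 22810 probe sets, 64 controls were set aside. The other 22746 were quantile-normalized, 16 was added and log2 taken. Probe sets naming 1 gene (13513) gave 13356 genes, 1 probe set a gene by highest mean. Those naming several (503) or unnamed here (8730) were left out. All 12 arrays were fitted as 4 group means with limma 3.58.1 in R 4.3.3 (lmFit, eBayes), with 5 contrasts and Benjamini-Hochberg adjustment over all genes. The fit was tested on simulated data with independent noise for each gene and few changed genes. That test checks the code and cannot show how calls respond to array brightness or scaling.

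Depth has no counterpart here: the number of arrays and their spread limit the precision, and detection calls were not used. The titles call the replicates biological without naming separate cultures, and the spread behind the p-values may thus be partly technical. Alternatives were other scalings, constants, filters and samples, a replicate block, and each array left out in turn.

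Members, lists and the rule for named genes were chosen with earlier results of these data known. Named were members called in a silencing comparison or in the difference, the 8 largest rises in each light comparison, the 3 steadiest members, and up to 3 called genes of each other list. The paralogue test, AT3G13580, AT3G60770, AT4G27090, AT4G34670, AT2G17360, AT3G02560, AT2G01250, AT3G09200, AT3G11250, AT5G15200 and AT4G39200 were chosen after values were seen. Loci were matched to the TAIR10.1 gene table for names only. Sequences were not used here.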

Additional observations from a re-analysis of the deposited data

Results flagged for a closer look

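AT5G39850, an S9 gene of the small subunit, was flagged because its silencing effects differed between light and darkness. The difference was 1.24 on the log2 scale (SE 0.30, limma adjusted p = 0.0237). All 3 light amiR-SNF4 arrays lay above all 3 light wild-type arrays. This difference was the 1 call among 39 members (2.56%), where 7.98% of all genes were called and 4.07% in this direction. The call was lost for 5 of 12 arrays left out in turn (highest adjusted p 0.0632), without normalization (0.406), with hybridization control scaling (0.158) and with 1 as the added constant (0.0749). Groups of 3 arrays were too small for a search for outlying arrays.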

How the results depend on the processing

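No member was called lower in light in either genotype under any of the settings tried, and 25 to 34 members were called in wild type and 33 to 36 in amiR-SNF4 with single arrays left out, with medians of 0.924 to 1.11 and 0.853 to 1.24. Their size depended on the scaling: medians were 1.67 and 1.5 without normalization and 2.07 and 2.15 with hybridization control scaling, where the median of all genes moved to 0.278 and 0.159, and to 0.536 and 0.619. Relative to all genes the members then stood at 1.39 and 1.34, and at 1.54 and 1.53. Without both dimmest dark arrays, a setting chosen after seeing the data, the medians were 0.935 and 0.852. The silencing counts were less stable. In darkness 0 members were called without normalization and with hybridization control scaling (2 at an unadjusted p each). There were 3 with 1 as the added constant, 2 when only the dark arrays were fitted, and 4 to 11 with single arrays left out. The 11 were called without amiR-SNF4 replicate 1, where the median was 0.278 (lowest -0.0925) and 29.6% of all genes were called. In light 0 were called without normalization (1 unadjusted; median -0.195, against -0.0899 for all genes), 4 when only the light arrays were fitted, 2 without both dimmest dark arrays, and 1 to 2 with single arrays left out (medians 0.0168 to 0.0915). For the difference 0 were called without normalization (0 unadjusted; median -0.186), with hybridization control scaling (1 unadjusted) or with 1 as the constant (2 unadjusted), and 0 to 1 with single arrays left out (medians -0.159 to 0.175). The causes were not tested. Same-numbered arrays of different groups did not consistently deviate together (r from -0.326 to 0.2 over 18 pairs, 4 of them over 0.1). The numbers were thus not taken as pairs. Arrays with different numbers reached higher values. The highest r was 0.363, between wild type dark replicate 3 and amiR-SNF4 dark replicate 1, the dimmest array of each dark group. What these arrays shared was not tested. With the replicate number as a block 6 members were called in darkness, 3 higher and 3 lower, 1 in light and 1 for the difference. Of 23 pairs of paralogues 15 to 18 were called under other scalings and constants and 15 to 17 with single arrays left out. Of the 24 values recomputed for single genes, namely the called silencing effects and the 8 largest light rises in each genotype, none changed sign. This was not examined for the other genes named. The values were picked as called or largest, so a change of sign was unlikely from the start. The replicate block, the fits of only the groups compared and the changes of filter left the member medians unchanged. Members dim in darkness, such as AT5G59240 and AT3G51190, are limited by signal over background.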

Other observations

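Among the 93 other cytosolic ribosomal protein genes measured, the largest light effects were those of AT3G06680 (3.02 ± 0.26 in wild type and 3.29 ± 0.26 in amiR-SNF4, n = 3 arrays per group), while AT4G39200 stood at -0.54 ± 0.305 and -0.43 ± 0.305 (limma adjusted p = 0.205 and 0.317). In darkness AT5G60670 (-0.72 ± 0.19), AT4G25890 (-0.68 ± 0.18) and AT3G28900 (-0.73 ± 0.23) were lower in amiR-SNF4. All 3 rose in light in both genotypes, by 0.59 (AT4G25890) to 1.502 (AT3G28900) in wild type and by 0.98 to 2.14 in amiR-SNF4, and the difference between their silencing effects was not called (adjusted p = 0.108, 0.455 and 0.292).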
